A study of Mus musculus with 6 samples.

Results

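CD40 and the BAFF receptors carry the signals that keep a B cell alive and drive it to divide when a helper T cell or a BAFF-secreting cell is near. The report follows 10 genes of the 24499 in the gene table, chosen by name: the receptors *Cd40*, *Tnfrsf13c* and *Tnfrsf13b*, the adaptors *Traf1*, *Traf2*, *Traf3* and *Traf5*, the kinase *Map3k14*, and the ubiquitin ligases *Birc2* and *Birc3*. All 10 were expressed highly enough to be tested, so no gene of the list was lost to a filter on low counts.

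RNA was sequenced from iGCBs (in vitro germinal center B cells) of 3 cKO and 3 control mice, 1 library per mouse. In the cKO mice (*Eif3e* fl/fl Cγ1Cre Rosa26-YFP LSL) Cre is switched on by transcription of the immunoglobulin γ1 constant region, removes *Eif3e*, which encodes a subunit of the translation initiation factor eIF3, and turns on YFP. The genotype of the other libraries is labeled as control, their library names carry cgWT, and their alleles are not spelled out in the labels. For its work on whole spleens the study describes controls that carry Cγ1Cre and Rosa26-YFP LSL. YFP+ cells were sorted in both groups, so all 6 libraries come from cells in which Cre had acted on the reporter. The mice were kept on the C57BL/6J background, and their age at harvest is not given in the sources used here. Naïve splenic B cells were grown for 3 days on irradiated 40LB cells, a BALB/c 3T3 fibroblast line made to express CD40L and BAFF, in medium with 1 ng/ml IL-4. Both groups therefore received the ligands of the receptors studied here throughout the culture.

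CD40 binds CD40L, and the BAFF receptor (encoded by *Tnfrsf13c*) binds BAFF, while TACI (*Tnfrsf13b*) binds both BAFF and APRIL. None of these receptors is an enzyme, and each recruits TRAF proteins to its cytoplasmic tail. In a resting cell TRAF3 and TRAF2 bring the ligases cIAP1 (*Birc2*) and cIAP2 (*Birc3*) to NIK (*Map3k14*), which is then degraded. Receptor engagement draws TRAF3 away, NIK accumulates, and the p100 protein encoded by *Nfkb2* is cut to p52, the alternative branch of NF-κB signaling. CD40 also activates the canonical branch through TRAF2, TRAF6 and the IKK complex.

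The libraries held 39079582 to 45504570 estimated counts. Levels are given as CPM (counts relative to the library total, scaled with TMM factors), and differences as log2 fold changes of cKO over control from edgeR's quasi-likelihood test, called at an adjusted p under 0.05 over the 13296 genes tested. *Eif3e* itself stood at 173, 150 and 152 CPM in cKO libraries and at 424, 401 and 392 CPM in control libraries, a log2 fold change of −1.36 (SE, the standard error, 0.0657; edgeR adjusted p = 6.71e-07). The summed level of 10 B cell markers was 5129 to 5382 CPM in cKO and 5072 to 5425 CPM in control iGCBs, and each of the 10 was above 1 CPM in all 6 libraries, although 4 were called higher and 4 lower, *Fcmr* with the lowest log2 fold change (−1.41). The summed level of 8 germinal center markers was 282 to 297 CPM in cKO and 370 to 441 CPM in control libraries, with 1 gene higher (*Fas*) and 4 lower, 3 of them past 1.5-fold. Plasma cell markers summed to 960 to 1129 CPM in cKO and 1326 to 1387 CPM in control libraries, with 2 of the 6 tested genes higher (*Irf4* and *Sdc1*) and 4 lower, among them *Jchain* at 7.25 ± 2.33 against 116 ± 27.0 CPM (SD, n = 3 each). The sum of 18 fibroblast markers, a cell type the feeder line could add, was 121 to 149 CPM in cKO and 91.3 to 161 CPM in control libraries. Of the 14 tested, 3 were higher (*Fn1*, *Col5a1* and *Fbn1*) and 0 lower, *Fbn1* was at 0 in all 3 control libraries, *Col1a1* was at 38.7 ± 1.88 and 51.7 ± 19.0 CPM (SD, n = 3 each), and 6 of the 18 were under 1 CPM in all 6 libraries. T cell markers summed to 4.57 to 5.20 CPM in cKO and 9.45 to 16.7 CPM in control libraries, with all 3 tested genes (*Cd5*, *Cd28* and *Lat*) lower, and *Cd3e*, which defines T cells, was at 0 in all 6. Myeloid markers summed to 21.7 to 26.6 CPM and 13.7 to 21.8 CPM, with 2 of the 5 tested genes higher (*Adgre1* and *Mpeg1*) and 0 lower, and with *Cd14* and *S100a8* at 0 in all 6. The part of these differences in the results below was not tested. *Xist* RNA was present in cKO library 2 and control libraries 1 and 2 and close to absent in the other 3.

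Of the 10 genes, 5 were higher in cKO iGCBs (*Cd40*, *Tnfrsf13b*, *Traf1*, *Traf3* and *Birc2*), 4 were lower (*Tnfrsf13c*, *Traf2*, *Traf5* and *Birc3*), and *Map3k14* was not called. The call of *Traf3* was lost in several alternatives, as given with its values. Over all genes tested, 24.1% were called higher and 24.5% lower. Past a 1.5-fold change there was 1 higher gene, *Birc2*, and there were 3 lower genes, *Tnfrsf13c*, *Traf2* and *Traf5*, against 10.4% and 10.6% of all genes tested. The groups did not overlap for 8 of the 10 genes, as for 58.7% of all genes tested, *Traf3* and *Map3k14* being the ones that overlapped. The median log2 fold change of the 10 genes was −0.01, next to 0.00 over all genes tested, so the list as a whole had no common direction. With 3 mice against 3, an exact permutation test of a single value cannot give a p below 0.1.

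**Figure D1:**
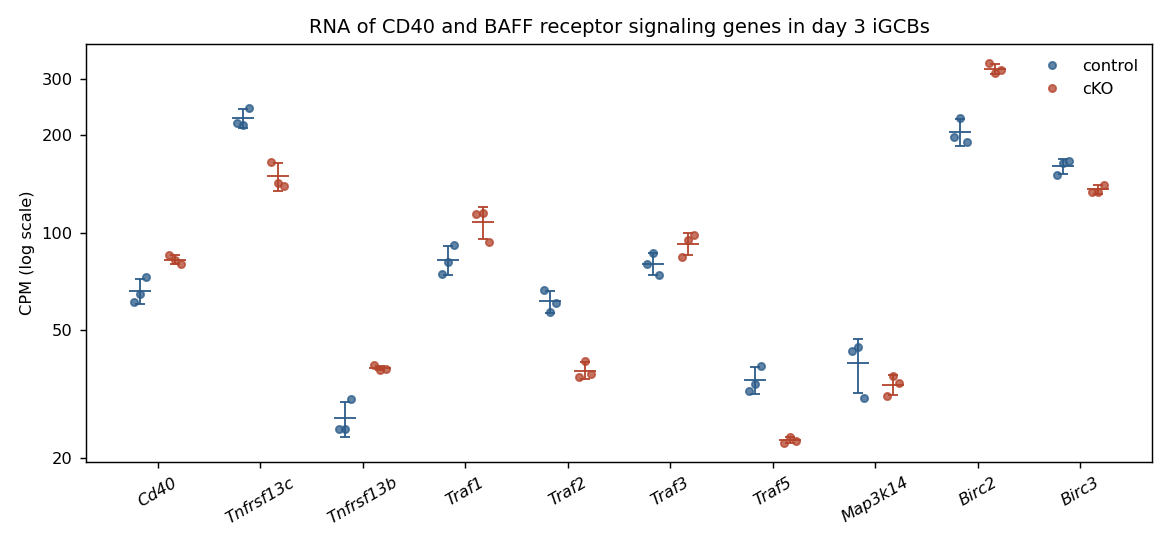
CPM of the 10 genes on a log axis, with 1 point per library (blue, control; red, cKO) and bars for the mean and SD of 3 libraries. *Birc2* sits at 311 CPM and above in cKO libraries and at 227 CPM and below in control libraries, *Traf2* shows the reverse order, and the points of *Traf3* and *Map3k14* overlap.

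The receptors moved in opposite directions. *Tnfrsf13c*, on chromosome 15 (GRCm38, 82221743 to 82224369, minus strand), encodes the receptor that mature B cells depend on for BAFF-driven survival. It was measured at 166, 142 and 140 CPM in cKO libraries and at 219, 216 and 243 CPM in control libraries. Every cKO library lay below every control library, and the gene fell from 226 ± 15.1 to 149 ± 14.5 CPM (SD, n = 3 each). Its log2 fold change was −0.60 (SE 0.0756, 95% interval −0.77 to −0.43, edgeR adjusted p = 0.000116), which left 66.0% of the control level. In bulk RNA, fewer cells of a type and less RNA per cell cannot be told apart.

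*Tnfrsf13b* encodes TACI, a receptor that takes part in class switching and plasma cell responses, and lies on chromosome 11 (GRCm38, 61126755 to 61149372, plus strand). Its level was 38.8, 37.7 and 37.8 CPM in cKO libraries and 24.6, 24.7 and 30.5 CPM in control libraries. The cKO libraries lay close together and above all the control libraries, of which replicate 3 was the highest. The log2 fold change was 0.52 (SE 0.0986, 95% interval 0.30 to 0.74, edgeR adjusted p = 0.00158).

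*Cd40* encodes the receptor for the CD40L that the feeder cells display, and lies on chromosome 2 (GRCm38, 165055627 to 165072948, plus strand). It stood at 85.2, 82.3 and 80.1 CPM in cKO libraries and at 61.2, 64.4 and 72.7 CPM in control libraries. The groups did not overlap, and the difference was smaller than for the BAFF receptors, with a log2 fold change of 0.32 (SE 0.0700, 95% interval 0.16 to 0.48, edgeR adjusted p = 0.00353). The third BAFF and APRIL receptor, *Tnfrsf17*, which encodes BCMA and marks plasma cells, had 4, 0 and 0 counts in cKO libraries and 0, 0 and 3 counts in control libraries, too few to test.

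Relative to *Tnfrsf13c* within the same library, both other receptors were higher in cKO iGCBs. The ratio of *Tnfrsf13b* to *Tnfrsf13c* counts was 0.234, 0.265 and 0.271 in cKO libraries and 0.113, 0.115 and 0.125 in control libraries, a difference of 1.13 on the log2 scale (exact permutation p = 0.1, two-sided, adjusted p = 0.133 over 8 ratios). The ratio of *Cd40* to *Tnfrsf13c* was 0.513, 0.579 and 0.574 against 0.280, 0.298 and 0.299, a log2 difference of 0.93 (exact permutation p = 0.1, adjusted p = 0.133). Neither ratio overlapped between groups, and 0.1 is the smallest p this design allows. The single genes were already separate in opposite directions, so the ratios could not overlap. Their separation and p restate the single-gene results. A ratio of counts shows unequal change between a pair of genes, not which of them moved.

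**Figure D2:**
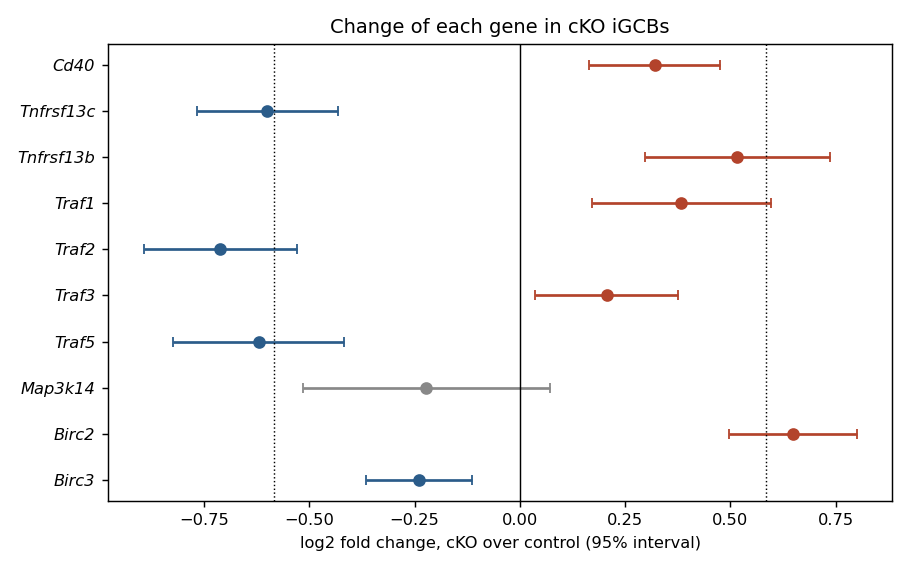
Log2 fold change of cKO over control with its 95% interval for the 10 genes (red, called higher; blue, called lower; gray, not called), with dotted lines at a 1.5-fold change. The points run from −0.71 for *Traf2* to 0.65 for *Birc2*, and only the interval of *Map3k14* crosses 0.

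Of the 4 adaptors of the relay, *Traf2* and *Traf5* fell and *Traf1* and *Traf3* rose. TRAF2 is the adaptor that carries the cIAP proteins to the receptor complex. *Traf2*, on chromosome 2 (GRCm38, 25517982 to 25546940, minus strand), was measured at 35.8, 40.1 and 36.4 CPM in cKO libraries and at 66.5, 56.8 and 60.4 CPM in control libraries. All cKO libraries were well below all control libraries, with means of 37.4 ± 2.32 and 61.3 ± 4.92 CPM (SD, n = 3 each). The log2 fold change was −0.71 (SE 0.0820, 95% interval −0.89 to −0.53, edgeR adjusted p = 6.59e-05), and 61.1% of the control level remained.

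*Traf5*, on chromosome 1 (GRCm38, 191997205 to 192092559, minus strand), encodes an adaptor that binds CD40 and overlaps with TRAF2 in function. Its level was 22.3, 23.3 and 22.7 CPM in cKO libraries and 32.4, 34.0 and 38.7 CPM in control libraries. The groups were separate, and the log2 fold change was −0.62 (SE 0.0910, edgeR adjusted p = 0.000308). The ratio of *Traf5* to *Traf2* was 0.610 on average in cKO and 0.575 in control libraries, and overlapped between groups (log2 difference 0.09, exact permutation p = 0.7, adjusted p = 0.7). This difference turned to −0.02 without control replicate 1. The exons of *Traf5* share 205 bases with an antisense gene, *Gm26879*, which is not among the genes counted.

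*Traf1* encodes a TRAF without a RING domain that is itself induced by NF-κB and binds TRAF2. It lies on chromosome 2 (GRCm38, 34941750 to 34961772, minus strand) and was at 114, 115 and 93.5 CPM in cKO libraries and at 74.6, 81.3 and 91.6 CPM in control libraries. The lowest cKO library stood just above the highest control library. The log2 fold change was 0.38 (SE 0.0952, 95% interval 0.17 to 0.60, edgeR adjusted p = 0.00726).

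*Traf3*, on chromosome 12 (GRCm38, 111166370 to 111267153, plus strand), encodes the adaptor that holds NIK in the degradation complex. It was at 84.2, 95 and 98.3 CPM in cKO libraries and at 80.1, 86.5 and 74.0 CPM in control libraries. The groups overlapped, since cKO replicate 1 was below control replicate 2. The log2 fold change of 0.21 (SE 0.0766, 95% interval 0.04 to 0.38) had an edgeR adjusted p of 0.0468, just past the threshold. Leaving out cKO replicate 2 or 3 or control replicate 1 or 3 moved that adjusted p to 0.144, 0.146, 0.107 and 0.127, so the call depended on each of these libraries. It was also lost without the filter on low counts (edgeR adjusted p = 0.0588) and with the replicate number as a block (edgeR adjusted p = 0.0543).

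Among the adaptors, 2 of 4 ratios within a library did not overlap between groups, and none had an adjusted p under 0.05, which 3 mice against 3 cannot give. A share over all gene pairs was not computed, and 58.7% of single genes tested did not overlap, so this count singles out nothing about the adaptors. *Traf1* counts were 3.19, 2.87 and 2.57 times those of *Traf2* in cKO libraries and 1.12, 1.43 and 1.52 times in control libraries, a log2 difference of 1.09 (exact permutation p = 0.1, adjusted p = 0.133). The ratio of *Traf2* to *Traf3* was 0.425, 0.422 and 0.370 in cKO libraries and 0.830, 0.656 and 0.817 in control libraries, a log2 difference of −0.92 (exact permutation p = 0.1, adjusted p = 0.133). Neither of these ratios overlapped between groups. For *Traf1* to *Traf2* this had to be so, since both genes were already separate in opposite directions. The ratio of *Traf1* to *Traf3* did overlap, with a log2 difference of 0.18 (exact permutation p = 0.5, adjusted p = 0.571), which ranged from 0.06 without cKO replicate 1 to 0.32 without cKO replicate 3 when each library was left out in turn.

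*Map3k14* encodes NIK, the kinase on which the alternative branch turns, and its amount is set mostly by degradation of the protein, which these data do not measure. On chromosome 11 (GRCm38, 103219762 to 103267472, minus strand), it was at 31.1, 36.0 and 34.3 CPM in cKO libraries and at 43.0, 44.4 and 30.9 CPM in control libraries. Control replicate 3 was the lowest of all 6 libraries, so the groups overlapped. The log2 fold change was −0.22 (SE 0.132, 95% interval −0.51 to 0.07, edgeR adjusted p = 0.193). Without control replicate 3 it was −0.37 (edgeR adjusted p = 0.0075). Set against *Traf3* in the same library, *Map3k14* did not overlap between groups, at 0.370, 0.379 and 0.349 in cKO and 0.537, 0.513 and 0.417 in control libraries (log2 difference −0.41, exact permutation p = 0.1, adjusted p = 0.133).

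The neighboring genes of the cIAP proteins moved apart. *Birc2* and *Birc3* lie next to each other on the minus strand of chromosome 9 (GRCm38, 7818227 to 7837064 and 7848699 to 7873186) and encode cIAP1 and cIAP2. *Birc2* was at 335, 311 and 318 CPM in cKO libraries and at 197, 227 and 191 CPM in control libraries. All cKO libraries lay above all control libraries. The mean went up from 205 ± 19.1 CPM in control to 322 ± 12.2 CPM in cKO iGCBs (SD, n = 3 each), and the log2 fold change was 0.65 (SE 0.0680, 95% interval 0.50 to 0.80, edgeR adjusted p = 3.59e-05) or 1.57-fold.

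*Birc3*, whose transcription NF-κB is known to induce, was at 134, 134 and 141 CPM in cKO libraries and at 151, 165 and 166 CPM in control libraries. It was lower in every cKO library than in every control library, by a small amount (log2 fold change −0.24, SE 0.0561, 95% interval −0.36 to −0.11, edgeR adjusted p = 0.00528). The ratio of *Birc3* to *Birc2* was 0.399, 0.429 and 0.442 in cKO libraries and 0.766, 0.725 and 0.869 in control libraries, a log2 difference of −0.89 with no overlap (exact permutation p = 0.1, adjusted p = 0.133). Both genes were already separate in opposite directions, so the lack of overlap restates the single-gene results. Of the 75-base windows of *Birc3* transcripts, 6.48% also occur in transcripts annotated to *Birc2* or to 3 predicted genes, so a small part of its counts could be misassigned. Windows shared with *Birc2* are ambiguous for both genes, so *Birc2* counts and the ratio could be affected too. The share for *Birc2* was not counted separately.

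**Figure D3:**
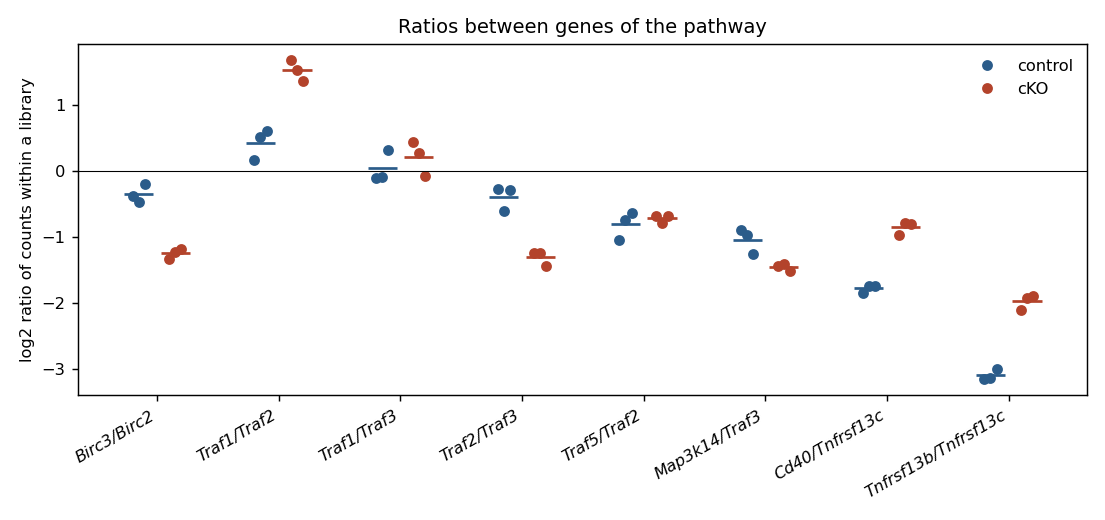
Log2 ratio of the counts of a pair of genes within each library, with 1 point per library (blue, control; red, cKO) and a line at each group mean. Ratios of 6 of the 8 pairs do not overlap between groups, and *Traf1* to *Traf3* and *Traf5* to *Traf2* do. The pairs *Birc3* to *Birc2*, *Traf1* to *Traf2*, and *Cd40* or *Tnfrsf13b* to *Tnfrsf13c* join genes already separate in opposite directions, so they could not overlap. A share over all gene pairs was not computed, and 58.7% of single genes tested did not overlap.

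Dividing CPM by exon length allowed the genes to be ordered by level. In control iGCBs *Tnfrsf13c* stood first at 118 ± 7.85 CPM per kb, followed by *Birc2* at 61.6 ± 5.74 and *Birc3* at 60.2 ± 3.19 CPM per kb (SD, n = 3 each), which did not differ beyond their spread. *Cd40* at 39.1 ± 3.50, *Tnfrsf13b* at 35.5 ± 4.497 and *Traf1* at 35.5 ± 3.70 CPM per kb lay within the spread of one another. The level of *Cd40* depends on the length used, here 1692 bases of exon inside the bounds of its RefSeq transcripts. With the 2986 bases of its longest GENCODE transcript it was 22.1 CPM per kb in control and 27.6 CPM per kb in cKO iGCBs, below *Traf1* and above *Traf2* in both. *Traf2* at 19.98 ± 1.60 and *Traf5* at 17.8 ± 1.67 CPM per kb followed, then *Traf3* at 11.2 ± 0.877 and *Map3k14* at 9.45 ± 1.79 CPM per kb.

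In cKO iGCBs *Birc2* stood first at 96.5 ± 3.66 CPM per kb, above *Tnfrsf13c* at 77.6 ± 7.55 CPM per kb (SD, n = 3 each). *Birc3* at 51.0 ± 1.54, *Tnfrsf13b* at 50.8 ± 0.846, *Cd40* at 48.8 ± 1.503 and *Traf1* at 46.3 ± 5.26 CPM per kb lay within a narrow range. *Traf3* at 12.9 ± 1.03, *Traf2* at 12.2 ± 0.757 and *Traf5* at 11.6 ± 0.256 CPM per kb followed in this order in each cKO library, with the gap between neighbors smaller than the SD of the higher gene. In each control library the order of these 3 genes had been different, with *Traf2* and *Traf5* above *Traf3*. *Map3k14* was last at 8.10 ± 0.592 CPM per kb. The exon lengths come from GENCODE models, and another choice of transcript ends shifts a gene in both groups alike. The model of *Tnfrsf13b* has 750 bases, 747 of them coding, so its level per kb may be overstated beside the other genes. Its longest transcript has the same length, so that alternative does not address this.

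The libraries with *Xist* RNA (1 cKO and 2 control) and those without (2 cKO and 1 control) were also compared on their own, as a description, since each side has an arm of 1 library. Within both, 9 of the 10 genes had the direction found over all 6 libraries, as did 80.8% of all genes tested and 6466 of the 6468 genes called. These 9 are the called genes, so they did as called genes did in general. The log2 difference in the libraries with and without *Xist* was −0.61 and −0.67 for *Tnfrsf13c*, −0.62 and −0.74 for *Traf2*, and 0.55 and 0.77 for *Birc2*. It was 0.39 and 0.19 for *Cd40*, 0.61 and 0.33 for *Tnfrsf13b*, −0.51 and −0.78 for *Traf5*, and 0.56 and 0.18 for *Traf1*. For *Map3k14*, the exception, it was −0.28 and 0.08, and with *Xist* as a covariate its log2 fold change was −0.09 (edgeR adjusted p = 0.531).

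Of the members, 5 have more than 1 RefSeq transcript, and their transcript use was compared. The form of *Traf2* read from NM_001290413 keeps 21 extra bases at the end of exon 2, which add residues within the RING domain in frame. The coding part of that exon is shown because it holds the coding difference between both *Traf2* forms, which also differ in noncoding length,, with the 21 bases in capitals (GRCm38, chr2:25538845-25539053, minus strand).
Traf2 exon 2, coding part: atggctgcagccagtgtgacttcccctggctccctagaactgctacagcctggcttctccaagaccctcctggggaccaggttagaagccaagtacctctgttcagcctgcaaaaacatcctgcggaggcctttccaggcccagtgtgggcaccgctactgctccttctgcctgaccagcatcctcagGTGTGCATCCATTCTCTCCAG
This form took 26.3%, 30.3% and 29.1% of *Traf2* counts in cKO libraries and 37.0%, 29.7% and 27.8% in control libraries. The groups overlapped, so the fall of *Traf2* came with no detectable shift between its forms.

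The full-length *Cd40* transcript, NM_011611, includes exon 6, and the transcript linked to NM_170703 lacks it. Exon 6 is 62 bases long, so leaving it out shifts the reading frame ahead of exon 7, which encodes the membrane-spanning segment. Exons 5 to 7 are shown joined to make that position visible, with exon 6 in capitals (GRCm38, plus strand, chr2:165063468-165063561, chr2:165066503-165066564 and chr2:165069629-165069715).
Cd40 exons 5 to 7, joined: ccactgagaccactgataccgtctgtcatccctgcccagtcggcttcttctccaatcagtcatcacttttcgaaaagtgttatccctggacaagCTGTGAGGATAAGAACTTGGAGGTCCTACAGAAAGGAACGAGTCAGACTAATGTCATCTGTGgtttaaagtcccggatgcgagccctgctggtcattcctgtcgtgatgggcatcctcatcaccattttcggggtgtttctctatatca
The full-length transcript took 73.9%, 69.6% and 78.1% of *Cd40* counts in cKO libraries and 75.9%, 56.6% and 73.2% in control libraries. The transcript without exon 6 took 11.1%, 14.1% and 10.4% in cKO and 16.8%, 18.8% and 10.9% in control libraries. Both ranges overlapped, and most *Cd40* RNA in either group was of the form that encodes the membrane receptor. Of the remaining *Cd40* transcripts, NR_027852 averaged 7.33% in cKO and 8.04% in control libraries, NM_170704 averaged 5.68% and 5.78%, and NM_170702 stayed under 5%.

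*Birc2* was split between transcripts that differ in a noncoding first exon. NM_007465 took 34.4%, 21.4% and 41.6% of *Birc2* counts in cKO libraries and 31.7%, 24.5% and 10.1% in control libraries. The spread within each group was as wide as the difference between them, and NM_001291503 took the rest. For *Traf1*, NM_001326601 took 21.3%, 19.2% and 35.9% in cKO libraries and 42.3%, 30.3% and 68.6% in control libraries, with control replicate 2 below cKO replicate 3 (unadjusted p = 0.0485, adjusted p = 1, edgeR's diffSpliceDGE). NM_011632 took over 99% of *Traf3* counts in each library.

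By edgeR's diffSpliceDGE, 0 of the 5 genes were called for transcript use, and 1.37% of the 2990 genes that could be tested were. An unadjusted p under 0.05 was reached by 1 of the 5 genes' transcripts, that of *Traf1*. Estimated counts of overlapping transcripts are shared out by the quantification, which adds to the spread of these shares.

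**Figure D4:**
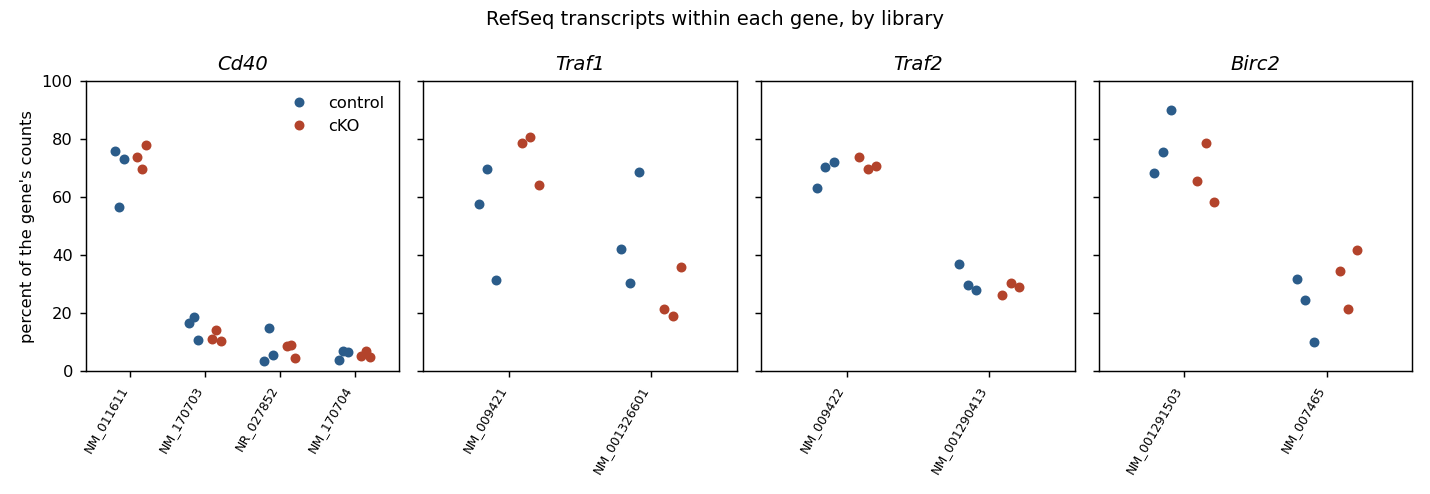
Percent of a gene's counts taken by each RefSeq transcript that reached 5% in any library, with 1 point per library (blue, control; red, cKO). The groups overlap for each transcript shown, and the shares of *Traf1* and *Birc2* transcripts spread most among libraries.

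RNA of the ligands was low in the sorted cells. *Cd40lg* had 36, 16 and 20 counts in cKO libraries and 52, 21 and 10 in control libraries, and *Tnfsf13b*, which encodes BAFF, had 74, 80 and 82 counts and 99, 143 and 66 counts. Neither was called (edgeR adjusted p = 0.769 and 0.256). *Tnfsf13*, which encodes APRIL, had 5 counts in control replicate 1 and was at 0 elsewhere. Whether the reads of *Cd40lg* and *Tnfsf13b* came from B cells or from feeder cells cannot be told apart.

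Around the 10 genes, a list of 35 further pathway genes was examined, of which 34 could be tested. Of these, 11 were higher, 14 were lower and 9 were not called, with a median log2 fold change of −0.11, where 24.1% and 24.5% of all genes tested were higher and lower. Of 11 kinases and their partners 1 was higher and 8 were lower, of 5 NF-κB subunits 3 were higher and 0 were lower, and of 12 inhibitors 6 were higher and 2 were lower. Of the 6 other adaptors tested, 1 was higher and 4 were lower. Whether these lists differ from one another was not tested.

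Among the adaptors, *Traf6*, which links CD40 to the canonical branch, fell from 168 ± 4.66 to 133 ± 7.06 CPM (SD, n = 3 each; log2 fold change −0.33, SE 0.0556, edgeR adjusted p = 0.000751). *Traf4* rose, with a log2 fold change of 0.29 (SE 0.0804, edgeR adjusted p = 0.0133). *Traf3ip2*, which encodes the adaptor Act1, a regulator of CD40 and BAFF receptor signals, fell from 36.3 ± 2.02 to 21.8 ± 1.78 CPM (SD, n = 3 each; log2 fold change −0.74, edgeR adjusted p = 0.00011). *Tifa*, which encodes a TRAF6-binding protein, had the same log2 fold change of −0.74 (SE 0.208, edgeR adjusted p = 0.0135), but its groups overlapped, at 28.8, 24.1 and 21.6 CPM in cKO and 44.3, 53.3 and 27.2 CPM in control libraries.

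Among the kinases, *Map3k1*, which encodes MEKK1 and acts in CD40 signaling to JNK, was at 83.5, 78.8 and 83.3 CPM in cKO libraries and at 175, 154 and 133 CPM in control libraries. It had the lowest log2 fold change of the pathway list, −0.91 (SE 0.0895, edgeR adjusted p = 2.42e-05). *Jak3*, which encodes a kinase of common γ chain cytokine receptors that has been linked to CD40, was at 125, 118 and 112 CPM in cKO and at 210, 221 and 208 CPM in control libraries (log2 fold change −0.85, edgeR adjusted p = 2.9e-06). *Ikbkb*, which encodes the canonical kinase IKKβ, fell by 0.48 on the log2 scale (edgeR adjusted p = 9.51e-05). *Chuk*, which encodes IKKα, the kinase that NIK activates, was not called (log2 fold change −0.11, SE 0.0721, edgeR adjusted p = 0.245).

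Among the NF-κB subunits, *Nfkb1* (p105 and p50) rose from 404 ± 26.3 to 719 ± 60.4 CPM (SD, n = 3 each; log2 fold change 0.83, SE 0.0701, edgeR adjusted p = 9.64e-06). *Nfkb2*, the precursor that NIK signaling cuts, was at 605, 637 and 605 CPM in cKO and at 409, 460 and 428 CPM in control libraries (log2 fold change 0.51, edgeR adjusted p = 4.36e-05). *Relb*, the partner of p52, rose by a log2 fold change of 0.42 (edgeR adjusted p = 0.000249). *Rel* and *Rela* were not called, with log2 fold changes of −0.21 (SE 0.113, edgeR adjusted p = 0.145) and −0.08 (SE 0.0494, edgeR adjusted p = 0.209).

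Among the inhibitors, *Tnfaip3*, which encodes the ubiquitin-editing enzyme A20, was at 248, 298 and 320 CPM in cKO libraries and at 111, 139 and 150 CPM in control libraries. Its log2 fold change of 1.11 (SE 0.116, edgeR adjusted p = 3.48e-05) was the largest of the pathway list. *Nfkbie*, which encodes IκBε, rose from 63.5 ± 8.76 to 115 ± 5.24 CPM (SD, n = 3 each; log2 fold change 0.86, edgeR adjusted p = 4.1e-05). *Tnip1*, whose product works with A20, moved the other way, from 76.8 ± 1.48 to 49.8 ± 0.681 CPM (SD, n = 3 each; log2 fold change −0.63, edgeR adjusted p = 1.36e-05). *Otud7b*, which encodes a deubiquitinase that spares TRAF3, rose by 0.25 on the log2 scale (edgeR adjusted p = 0.00333).

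**Figure D5:**
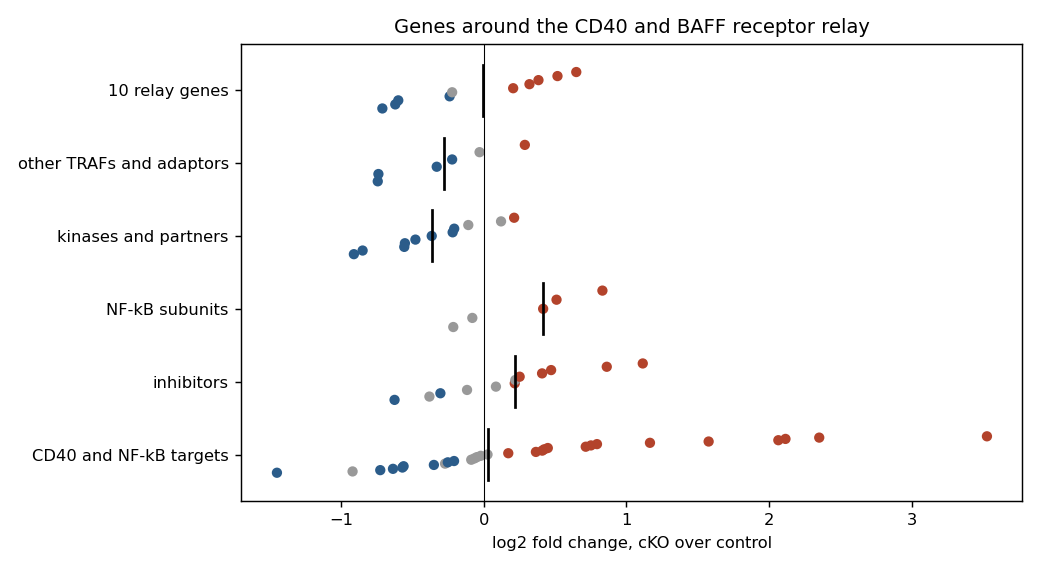
Log2 fold change of cKO over control for each tested gene of the 10-gene relay and of 5 further lists (red, called higher; blue, called lower; gray, not called), with a black bar at each median. The medians are −0.36 for kinases and partners, 0.42 for NF-κB subunits and 0.22 for inhibitors, and the target genes spread from −1.45 to 3.53.

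Genes that CD40 or NF-κB is known to induce in B cells did not move one way. Of 32 such genes 29 were tested, of which 14 were higher, 8 were lower and 7 were not called, with a median log2 fold change of 0.03, beside the same 24.1% and 24.5% of all genes. Past 1.5-fold there were 9 higher and 3 lower genes, beside 10.4% and 10.6% of all genes. The list was chosen with earlier results of these data known. It holds *Tnfsf4*, *Cd80* and *Icam1*, whose RNA the study reports as raised, so these counts are not independent of the data. The 3 largest increases were those of *Tnfsf4*, which encodes OX40L, *Cd80*, which encodes a costimulatory ligand of CD28, and *Bcl2l1*, which encodes the survival protein Bcl-xL.

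*Tnfsf4* stood at 16.99, 24.8 and 18.8 CPM in cKO libraries and at 2.11, 1.32 and 1.80 CPM in control libraries (log2 fold change 3.53, SE 0.206, edgeR adjusted p = 1.62e-06). *Bcl2l1* was at 137, 160 and 143 CPM in cKO and at 31.3, 35.1 and 35.3 CPM in control libraries (log2 fold change 2.12, SE 0.0760, edgeR adjusted p = 2.67e-07). *Cd80* had a log2 fold change of 2.35 (SE 0.0965, edgeR adjusted p = 3.6e-07). Each cKO library exceeded each control library for all 3 genes, which the rule for naming them required.

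Among the targets called, the 3 largest decreases were those of *Cd86*, *Tnf* and *Gadd45b*. *Cd86*, which encodes the other CD28 ligand, was at 12.0, 15.8 and 13.7 CPM in cKO libraries and at 35.3, 36.8 and 41.5 CPM in control libraries (log2 fold change −1.45, SE 0.117, edgeR adjusted p = 7.81e-06). *Tnf*, which encodes the cytokine TNF, and *Gadd45b*, an NF-κB-induced stress gene, fell by 0.73 and 0.64 on the log2 scale (edgeR adjusted p = 0.00869 and 0.000496). *Cd80* and *Cd86*, which bind the same receptor, thus moved in opposite directions.

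Promoter sequence was compared for the members in the RefSeq table of GRCm38.p6, which matched 9 of the 10 (not *Cd40*). The window ran from 250 bases before to 50 bases after each start, and both strands were searched for the κB consensus. Of the 10 promoters of these 9 genes 1 held a match, that of *Traf3*, first base 10 bases before the start, and 8.46% of all 32851 promoters in the table held at least 1. Such a match describes letters only.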

How the data were processed

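Members and gene lists were chosen with earlier results of these data known. After trimming and alignment with HISAT2, the authors ran StringTie, and the deposited estimated counts, for genes and for RefSeq transcripts, are whole numbers from its prepDE script with no normalization. The submitters' processing notes name mm10, and versions are not given in the sources used here. Because prepDE derives counts from coverage, totals are not numbers of sequenced fragments, and how far counting used strand is not stated.

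The analysis used edgeR 4.0.16 under R 4.3.3: filterByExpr (minimum count 10), TMM factors and the quasi-likelihood test between cKO and control with no covariate. P-values were adjusted by Benjamini-Hochberg over all 13296 genes. DESeq2 1.42.0, the study's tool, was an alternative. diffSpliceDGE tested transcript use, for which 34669 of 36026 transcripts were matched to a gene. Ratios were compared by exact permutation, two-sided. CPM below 0.0659 to 0.0768, which is 3 counts, was taken as the floor, and covers counting error only. P-values measure the spread between individual mice. Positions and exons are from GENCODE M21 on GRCm38 and promoters from RefSeq, both matched by symbol.

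Genes outside the 10 were named by a rule: pathway and ligand genes past an adjusted p of 0.05 and 1.5-fold, the NF-κB subunits, and the 3 largest increases and decreases among called targets whose mean reached 10 CPM and whose groups did not overlap. The ligands, *Traf6*, *Traf4*, *Ikbkb*, *Chuk*, *Otud7b* and *Tnfrsf17* fall outside it and were chosen after their values were seen.

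In simulated data with 200 of 13296 genes changed 2-fold, edgeR recovered 69.9% of the 196 changed genes tested with 9 unchanged genes called, and DESeq2 74.5% of 200 with 23. Each recovered 115 of the 116 with a mean of at least 500 counts. Alternatives were DESeq2, its size factors, total counts only, no filter, counts divided by 2, a minimum of 10 counts in all samples, *Xist* as a covariate, the replicate number as a block, each library left out, and a 1.5-fold cutoff or test. The use of the longest GENCODE transcript for levels per length was chosen after seeing the data.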

Additional observations from a re-analysis of the deposited data

How the results depend on the processing

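*Cd40*, *Tnfrsf13c*, *Tnfrsf13b*, *Traf1*, *Traf2*, *Traf5*, *Birc2* and *Birc3* kept their direction and stayed past the threshold in all 14 alternatives run for them. With edgeR's test against a 1.5-fold change, 0 genes of the relay were higher and 0 lower, 3 and 2 of the pathway list, and 8 and 1 of the targets, since the alternative asks for a change larger than most of these genes had. With an adjusted p under 0.05 and over 1.5-fold, the counts were 1 higher and 3 lower for the relay, 3 and 5 for the pathway and 9 and 3 for the targets. Of all genes tested, 10.4% were higher and 10.6% lower by that cutoff. The log2 fold change of *Traf3* was 0.21 without a filter on low counts (edgeR adjusted p = 0.0588), and 0.15 to 0.27 with each library left out. That of *Map3k14* was −0.37 to −0.14 with each library left out, past the threshold only without control replicate 3, and −0.09 with *Xist* as a covariate (edgeR adjusted p = 0.531). The log2 difference of the *Traf5* to *Traf2* ratio was −0.0223 to 0.17, reversed without control replicate 1. The cause of these shifts was not tested. Over all genes, transcript use calls went from 41 to 17 without the filter.

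Replicate numbers showed no clear pairing of the samples. Deviations of same-numbered libraries correlated at 0.00, 0.11 and 0.22, and 3 of 6 libraries correlated best with their own number. With 3 libraries per group, these values cannot settle whether the samples were paired. The study used paired t tests on cKO and control iGCBs of this culture, for proliferation, death and surface proteins. It does not say whether the RNA libraries were paired. With the replicate block, *Traf3* had a log2 fold change of 0.21 (edgeR adjusted p = 0.0543), 3069 genes were higher and 3165 lower, and transcript use calls went from 41 to 0. No other gene of the relay changed its call under the block. At 3 mice per group, genes with few counts, such as the ligands, limit what could be detected.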
